A study of Rattus norvegicus with 8 samples.

Results

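The genes described here run muscle protein breakdown through the ubiquitin system: the ubiquitin ligase genes Fbxo32, Trim63, Fbxo30, Fbxo31, Fbxo40 and Fbxo21, the transcription factor genes Foxo1, Foxo3 and Foxo4, and Mstn. A probe set, the group of short probes that measures one transcript, was counted as theirs if its only gene symbol in the array annotation was one of these 10 genes. This gave 15 of 31042 probe sets, for 9 of the 10 genes. Fbxo32, Trim63, Fbxo31, Foxo4 and Mstn had 1 probe set each, Fbxo30 and Fbxo21 had 2 each, and Foxo1 and Foxo3 had 3 each. Fbxo40 had 0 such probe sets and was not analysed here.

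A ubiquitin ligase attaches ubiquitin to a chosen protein, which the proteasome then degrades. Fbxo32 (atrogin-1) and Trim63 (MuRF1) are the best known ligases of wasting muscle. FoxO transcription factors switch on their genes when insulin and amino acid signals are low, and Akt keeps FoxO out of the nucleus when those signals are high. Myostatin, the product of Mstn, restrains muscle growth through activin receptors and Smad proteins.

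The epitrochlearis, a fast-twitch forelimb muscle of small size, was taken from male Sprague-Dawley rats 6 weeks old. The rats practised swimming for 3 days, ate a restricted 5 g of diet on the day before, swam for 2 h and were then tube-fed a meal of 44 kJ. The meal held carbohydrate with an amino acid mixture (AAM, n = 4) or carbohydrate with whey protein hydrolysate, enzyme-cut milk whey protein (WPH, n = 4), and the question was whether the protein source changes muscle gene expression. Each rat gave 1 Affymetrix array. All 8 rats swam and were fed, so the arrays hold no resting or fasted level of these genes. The time of sampling after the meal, the barrel in which each rat swam and any array batch are unknown. A batch that differed between the meals cannot be told apart from the meal.

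The windows below are those of Foxo4 and of the ligases Fbxo30 and Trim63, whose pairs with it passed the test across rats, with that of Foxo1 for comparison. Each runs from 250 bases before to 50 after the gene's start, 5′ to 3′ on the gene's strand, from RefSeq on the GRCr8 assembly. Such an entry was found for 7 of the 10 genes. Capitals mark a FoxO core motif, GTAAACA or its reverse complement TGTTTAC, or a Smad motif, CAGACA or its reverse complement TGTCTG. Both motifs were searched on both strands, and they do not overlap each other.
Trim63, GRCr8 chr5:151816986-151817285, plus strand: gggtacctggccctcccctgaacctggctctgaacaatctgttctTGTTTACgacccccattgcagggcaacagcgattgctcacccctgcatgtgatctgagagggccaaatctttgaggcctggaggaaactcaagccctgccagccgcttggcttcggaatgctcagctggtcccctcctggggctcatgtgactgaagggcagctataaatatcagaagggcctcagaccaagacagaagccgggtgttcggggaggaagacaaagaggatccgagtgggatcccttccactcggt
Fbxo30, GRCr8 chr1:7475589-7475888, plus strand: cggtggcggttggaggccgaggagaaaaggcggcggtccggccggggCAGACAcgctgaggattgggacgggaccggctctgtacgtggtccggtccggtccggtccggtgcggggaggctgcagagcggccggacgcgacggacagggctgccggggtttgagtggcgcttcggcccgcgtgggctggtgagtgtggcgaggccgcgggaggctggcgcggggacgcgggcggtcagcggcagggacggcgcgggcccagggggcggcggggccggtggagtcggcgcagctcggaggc
Foxo4, GRCr8 chrX:70425313-70425612, plus strand: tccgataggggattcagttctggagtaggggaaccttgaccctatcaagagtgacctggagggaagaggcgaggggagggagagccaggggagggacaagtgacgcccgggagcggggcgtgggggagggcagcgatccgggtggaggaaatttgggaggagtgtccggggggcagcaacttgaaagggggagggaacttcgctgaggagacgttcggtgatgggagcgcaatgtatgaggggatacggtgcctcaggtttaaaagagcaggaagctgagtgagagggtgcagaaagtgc
Foxo1, GRCr8 chr2:138462724-138463023, plus strand: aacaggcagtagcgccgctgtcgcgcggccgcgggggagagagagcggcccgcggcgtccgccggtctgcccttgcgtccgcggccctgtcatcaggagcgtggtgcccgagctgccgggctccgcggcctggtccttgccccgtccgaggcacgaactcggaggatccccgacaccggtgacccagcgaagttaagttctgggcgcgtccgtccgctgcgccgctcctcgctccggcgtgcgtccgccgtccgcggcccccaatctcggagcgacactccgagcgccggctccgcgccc

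The FoxO motif was found in 1 of the 7 windows, that of Trim63, as TGTTTAC with its first base at position -205 from the gene's start. It occurs in 3.78% of all 33469 windows of this length. The Smad motif was found in 1 of the 7, that of Fbxo30, with its first base at position -203, and it occurs in 21.1% of all windows. The Foxo4 and Foxo1 windows hold neither set of letters. A match of letters describes the sequence and does not show a bound site.

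The deposited values are levels on a log2-like scale between 5.28 and 14.2, with a median of 6.66 on each array. Differences between arrays were minute. Over the 8 arrays, the median SD among probe sets was 3.69e-06, so a difference cannot be read as a fold change. Array values are therefore given as deviations from the probe set's own mean, in steps of 0.001 or of 1e-06 deposited units. The meal difference is given as a standardized difference, WPH minus AAM over the pooled SD within meals, with a 95% interval. Each of the 7 fast-fibre markers measured, Myh4 and Actn3 among them, stood above at least 98.6% of probe sets. The 6 slow-fibre markers stood at 95.7% to 98.8%, so these levels do not tell the fibre types apart.

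Trim63 had the highest level of the 15 probe sets. Its mean over 8 arrays was 12.5, rank 135 of 31042, above 99.6% of probe sets. Foxo3 (1376593_at) stood at 10.2, above 96.6%, Fbxo31 at 9.90, above 95.6%, and Foxo1 (1376779_at) at 9.13, above 91.8%. Fbxo31 is the substrate-binding part of an SCF ligase known from cell-cycle control. Fbxo32 stood at 8.10, above 82.6% of probe sets. Fbxo30, a ligase gene known as MUSA1 that is held down by BMP signalling in muscle, stood at 8.09 and 7.91 in its 2 probe sets. Foxo4 stood at 7.87, above 79.5%. Mstn lay near the bottom at 5.94, above 8.14% of probe sets. The other Foxo1 and Foxo3 probe sets lay between 6.04 and 6.91. Probe sets differ in how well they bind, so these ranks describe signal and do not order the genes by amount of RNA.

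**Figure D1:**
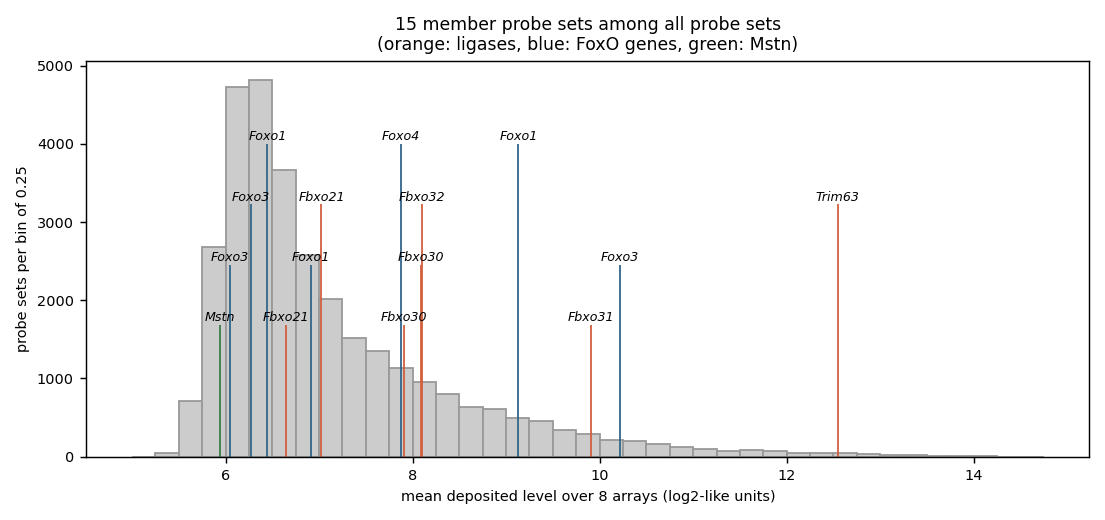
Histogram of the mean deposited level of 31042 probe sets over 8 arrays (x axis, log2-like units; y axis, probe sets per bin of 0.25), with vertical lines at the 15 probe sets of the ligases (orange), FoxO genes (blue) and Mstn (green); line heights differ only to separate the names. Trim63 lies far to the right at 12.5 and Mstn at the left at 5.94.

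Fbxo32, Fbxo30, Fbxo31 and Trim63 also varied more between rats than most probe sets did, and Fbxo21 varied less. The SD over 8 arrays was 0.00359 for Fbxo32, above that of 99.3% of all probe sets, and 0.00450 for Fbxo30 (1382059_at), above 99.4%. Fbxo31 (98.1%), the other Fbxo30 probe set (97.6%), Foxo1 1376779_at (97.4%) and Trim63 (97.0%) also lay in the top 5% by SD, which makes 6 of the 15. Foxo4 lay above 60.8% and the 2 Fbxo21 probe sets above 29.6% and 1.16% of probe sets. The dimmer Foxo1 probe sets lay above only 9.42% and 16.2%. Probe sets of 1 gene thus differed in SD, and these ranks describe probe sets.

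No gene of the set differed between the meals past the threshold. Of the 15 probe sets, 0 were called by limma at a Benjamini-Hochberg adjusted p of 0.05, as were 0% of all 31042 probe sets. At an unadjusted limma p below 0.05 the set had 0 of 15, against 3.58% of all probe sets. In 0 of 15 did the AAM and WPH arrays fail to overlap, against 2.23% of all. The standardized difference was above 0 in 10 and below 0 in 5 probe sets, where 47.3% of all probe sets were above 0. Its median was 0.105, against -0.0440 over all probe sets. The limma adjusted p was 0.9998 for each of the 15. The 15 intervals spanned -2.35 to 1.72 SD in all and each included 0, which is the precision that 4 rats per meal allow.

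Fbxo32 was at nearly the same mean after both meals, and the spread lay between rats. In steps of 0.001, AAM arrays 1 to 4 deviated from the gene's mean by 3.44, 0.440, -6.84 and 2.88, and WPH arrays 1 to 4 by 1.70, 1.35, 1.14 and -4.11. AAM replicate 3 and WPH replicate 4 were the lowest, and the meals overlapped. The standardized difference was 0.0108 (95% interval -1.38 to 1.40, n = 4 per meal; limma adjusted p = 0.9998).

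Trim63 had the same arrays at the bottom. In steps of 0.001, AAM arrays 1 to 4 deviated by 0.365, -0.0275, -0.865 and 0.220, and WPH arrays 1 to 4 by 0.298, 0.160, 0.262 and -0.411. The meals overlapped, with 3 WPH arrays between the highest and the second lowest AAM array. The standardized difference was 0.340 (95% interval -1.07 to 1.72, n = 4 per meal; limma adjusted p = 0.9998), the highest of the 15.

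Fbxo30 (1382059_at) was again lowest in AAM replicate 3 and WPH replicate 4. In steps of 0.001, AAM arrays 1 to 4 deviated by 4.26, -0.811, -6.99 and 3.09, and WPH arrays 1 to 4 by 6.24, -0.921, 0.0850 and -4.95. WPH replicate 1 was the highest. Its 2 probe sets gave standardized differences of 0.0458 and 0.225.

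For Fbxo31, AAM arrays 1 to 4 deviated by 1.30, -0.0636, -1.27 and 0.492 and WPH arrays 1 to 4 by 0.189, 0.350, -0.0714 and -0.930, in steps of 0.001. Here too AAM replicate 3 and WPH replicate 4 were the lowest, and the standardized difference was -0.268. Fbxo21, an F-box ligase gene known as SMART in muscle, followed another order. In steps of 1e-06, its brighter probe set deviated by 1.78, -1.73, 1.07 and 1.87 on AAM arrays 1 to 4 and by -2.23, -1.62, -0.553 and 1.40 on WPH arrays 1 to 4. Of the 15, it had the difference farthest from 0, at -0.912 (95% interval -2.35 to 0.595; unadjusted limma p = 0.239, exact permutation p = 0.257). The meals overlapped, and its dimmer probe set had the opposite sign.

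The FoxO factors sit upstream of the ligases. For Foxo1 (1376779_at), in steps of 0.001, AAM arrays 1 to 4 deviated by -0.0602, -0.0643, -0.473 and 1.01 and WPH arrays 1 to 4 by -0.145, -0.679, 0.475 and -0.0603. AAM replicate 4 was the highest and WPH replicate 2 the lowest, so the order differed from that of the ligases. Its 3 probe sets gave standardized differences of -0.366, -0.385 and 0.309.

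For Foxo3 (1376593_at), in steps of 1e-06, AAM arrays 1 to 4 deviated by -2.94, -4.64, -16.5 and 21.5 and WPH arrays 1 to 4 by -0.394, -8.76, 7.83 and 3.92. AAM replicate 4 was the highest, as for Foxo1, and AAM replicate 3 the lowest. Its 3 probe sets gave 0.105, 0.172 and -0.335. For Foxo4, in steps of 1e-06, AAM arrays 1 to 4 deviated by 3.16, -1.85, -9.22 and 4.50 and WPH arrays 1 to 4 by 8.96, -3.32, 2.09 and -4.30. WPH replicate 1 was the highest and AAM replicate 3 and WPH replicate 4 the lowest, nearly the order seen for Fbxo30. Its standardized difference was 0.278.

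Mstn ran the other way. In steps of 1e-06, AAM arrays 1 to 4 deviated by -21.2, 3.81, 11.5 and -9.39 and WPH arrays 1 to 4 by -34.5, 5.45, 8.89 and 35.4. WPH replicate 4, low for the ligases, was the highest, and WPH replicate 1 was the lowest. The standardized difference was 0.334 (n = 4 per meal), and the meals overlapped.

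**Figure D2:**
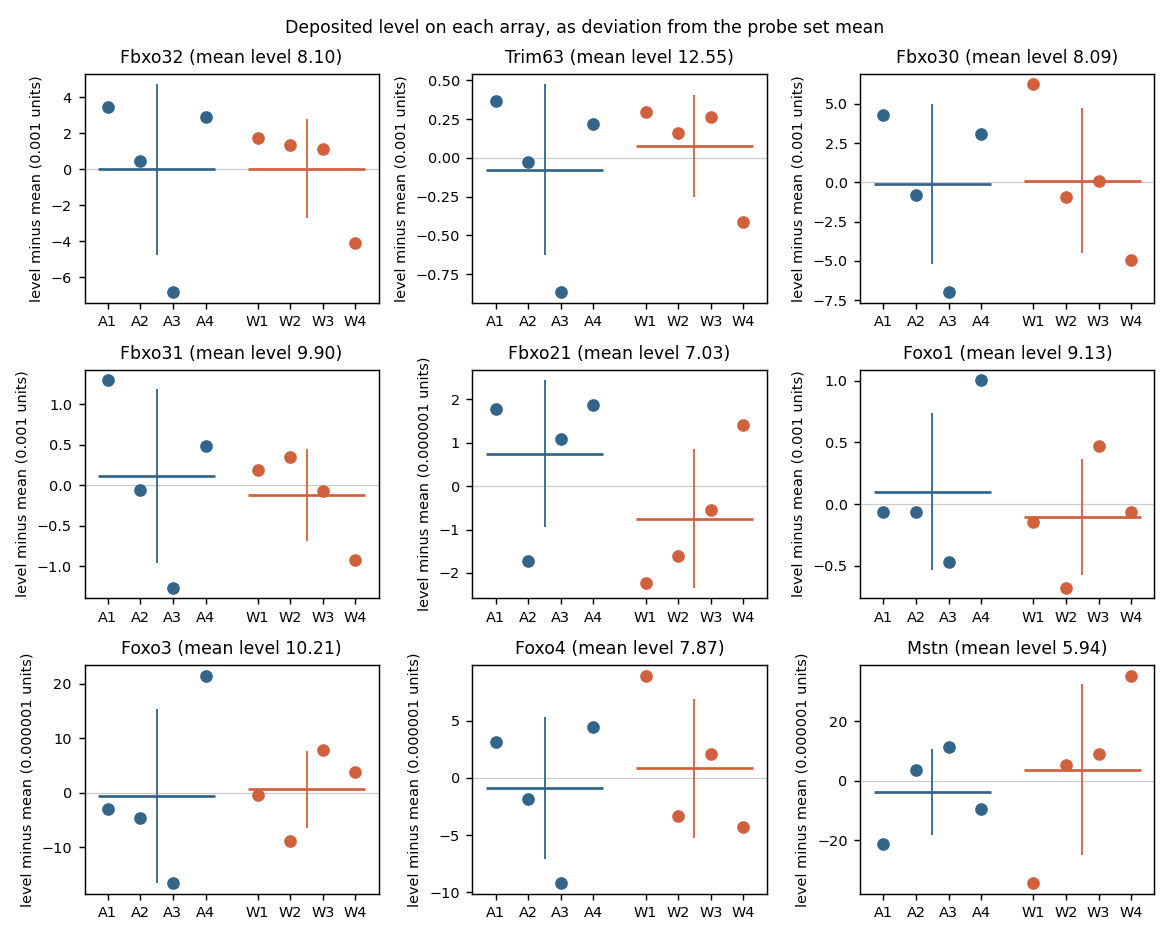
Deposited level on each array minus the gene's mean (y axis, in units of 0.001 or 0.000001 as marked) for the brightest probe set of 9 genes; x axis, AAM arrays A1 to A4 (blue) and WPH arrays W1 to W4 (orange), with horizontal lines at meal means and vertical lines of 1 SD to each side. Fbxo32, Trim63, Fbxo30, Fbxo31 and Foxo4 are lowest on A3, with W4 low as well, and the meals overlap in each panel.

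**Figure D3:**
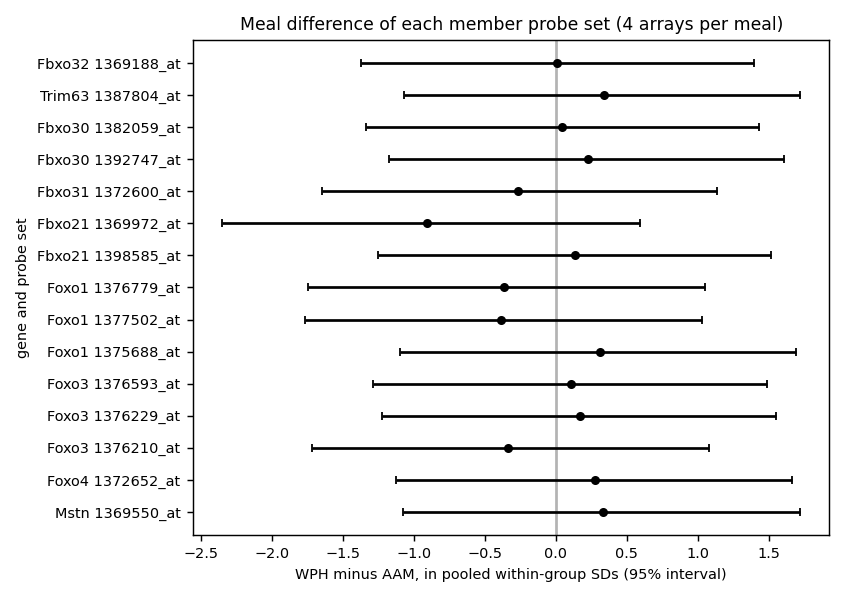
Standardized difference, WPH minus AAM in pooled SDs within meals (x axis), for the 15 probe sets (y axis), with 95% intervals, n = 4 arrays per meal. The points run from -0.912 to 0.340 and each of the 15 intervals includes 0.

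Across the 8 rats the 4 ligases Fbxo32, Trim63, Fbxo30 and Fbxo31 varied together. For each gene the probe set with the highest mean level was used. The 6 pairs among them had Pearson r from 0.842 to 0.978 and Spearman rho from 0.714 to 0.952. By exact permutation, adjusted over 18 pairs of genes chosen after the data were seen, 6 of the 6 passed by Pearson and 4 by Spearman. The closest pair was Fbxo32 with Trim63 (r = 0.978, exact permutation adjusted p = 0.0040; rho = 0.881, adjusted p = 0.0321; n = 8). With meal means removed the 6 values ran from 0.857 to 0.995. The other Fbxo30 probe set, 1392747_at, was not among the tested pairs. Its r was lower, at 0.745 with Fbxo32, 0.780 with Trim63 and 0.627 with Fbxo31. The brighter Fbxo21 probe set had r between -0.284 and -0.0269 with these 4 genes. Without AAM replicate 3 and WPH replicate 4 its r was above 0 with each. It was then 0.845 with Fbxo32, 0.458 with Trim63, 0.269 with Fbxo30 and 0.714 with Fbxo31 (n = 6), none past the threshold after adjustment. The dimmer one, 1398585_at, was not among the tested pairs and had -0.818 with Fbxo32, -0.828 with Trim63, -0.726 with Fbxo30 and -0.723 with Fbxo31. For the dimmer one, these values were between -0.135 and -0.0266 without AAM replicate 3 and WPH replicate 4, and above 0 with arrays centred on their medians (0.0894 to 0.267) or quantile normalized (0.00655 to 0.522).

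Without AAM replicate 3 and WPH replicate 4, the 6 r values ran from 0.474 to 0.895 over 6 arrays. Fbxo32 with Fbxo31 then had r = 0.895 (unadjusted exact permutation p = 0.0083, n = 6), against 0.940 over 8 arrays, and Fbxo32 with Trim63 had r = 0.737 (unadjusted exact permutation p = 0.0931, n = 6). After adjustment 0 of the 6 passed, but 6 arrays leave little room to pass, since r = 0.964 did not pass either, for Foxo1 with Foxo3. With 1 array left out, 5 of the 6 passed when this was AAM replicate 3 or 4 or WPH replicate 4, Fbxo30 with Fbxo31 being the pair lost. Many other probe sets shared the pattern too. An r of at least 0.7 was found for 10.5% of all other probe sets with Fbxo32 and for 9.71% with Trim63, and among the 5% of probe sets with the highest SD it was 27.8% with Trim63. The first principal component of all probe sets held 25.5% of the variance and was highest in AAM replicate 3 (0.648) and WPH replicate 4 (0.439). Its r with Fbxo32 was -0.962, with Trim63 -0.928, with Fbxo30 -0.931 and with Fbxo31 -0.961. After this component was removed the 6 pairs had r from -0.524 to 0.835, and Fbxo32 with Trim63 had the 0.835.

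Of the FoxO genes, only Foxo4 had pairs with ligases past the threshold in the values as deposited. Of the 18 pairs of 5 ligases or Mstn with 3 FoxO genes, 2 passed the threshold by Pearson and 1 by Spearman, and both were with Foxo4. Fbxo30 with Foxo4 had r = 0.957 (exact permutation adjusted p = 0.0031) and rho = 0.976 (adjusted p = 0.0071, n = 8). Without the 2 arrays farthest from the median of Foxo4 its r was 0.886, without AAM replicate 3 and WPH replicate 4 it was 0.922, and with the first principal component removed it was 0.956. The other probe set of Fbxo30 followed the first at r = 0.930.

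Trim63 with Foxo4 had r = 0.846 (exact permutation adjusted p = 0.0234) and rho = 0.857 (adjusted p = 0.0643, n = 8). The r was 0.768 without the 2 arrays farthest from the median of Foxo4, 0.657 without AAM replicate 3 and WPH replicate 4, and 0.445 with the first principal component removed. With 1 array left out, the Trim63 call was lost without any of AAM replicates 1, 3 and 4 and WPH replicates 3 and 4 (r from 0.723 to 0.845), and the Fbxo30 call without AAM replicate 3 (r = 0.928). Fbxo32 with Foxo4 missed the threshold at r = 0.807 (exact permutation adjusted p = 0.0516, n = 8), as did Fbxo31 with Foxo4 at 0.690. With the first principal component removed these values were 0.199 and -0.524. An r of at least 0.7 with Foxo4 was found for 8.41% of all other probe sets. The Foxo4 values differ between arrays by at most 1.82e-05, less than the 6.67e-05 by which the array medians differ. The range of 81.5% of all probe sets is also below that span. Centring on medians can thus shift most probe sets by more than they vary, so these r values depend on how the arrays are centred. With each array centred on its median, Fbxo30 with Foxo4 had r = 0.338 and Trim63 with Foxo4 had 0.444, and after quantile normalization they had 0.696 and 0.556. None of these 4 values passed the threshold. The deposited centring is unknown, so they do not decide whether the relations hold.

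The brightest probe sets of Foxo1 and Foxo3, the FoxO genes most often tied to Fbxo32 and Trim63, were not detectably related to the ligases. The r of Foxo1 with Fbxo32, Trim63, Fbxo30 and Fbxo31 was 0.416, 0.384, 0.377 and 0.260, and that of Foxo3 was 0.497, 0.494, 0.443 and 0.318. None of these 8 passed the threshold, which does not show that the genes were unrelated. With the first principal component removed, the 4 values of Foxo1 were 0.662, 0.420, 0.408 and 0.0734. Those of Foxo3 were then 0.645, 0.501, 0.359 and -0.0497. For Fbxo32 both were above its 0.199 with Foxo4, and for Trim63 they lay near its 0.445 with Foxo4. The difference between the r of Foxo4 and that of Foxo1 or Foxo3 was not tested. An r of at least 0.7 was found for 2.78% of all other probe sets with Foxo1 and for 3.28% with Foxo3. Among the 5% with the highest SD, the share with Foxo1 was 2.90%. A dimmer Foxo3 probe set, 1376229_at, ran opposite to the ligases as deposited, with r = -0.722 with Fbxo32, -0.720 with Trim63, -0.913 with Fbxo30 and -0.646 with Fbxo31. It was not among the tested pairs and was singled out after its values were seen. Centred on array medians these 4 values were 0.131, 0.129, -0.0427 and 0.174, and after quantile normalization 0.821, 0.447, 0.630 and 0.792, so their direction depends on the scaling.

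Foxo1 and Foxo3 varied with each other. Their r was 0.930 (exact permutation adjusted p = 0.0045) and rho 0.857 (adjusted p = 0.0321, n = 8), among the 18 pairs chosen after the data were seen. Without AAM replicate 3 and AAM replicate 4, the arrays farthest from the median, r was 0.867. With the first principal component removed it was 0.928, and without AAM replicate 3 and WPH replicate 4 it was 0.964 (exact permutation adjusted p = 0.050, not past the threshold, n = 6). Centred on array medians it was 0.415 and did not pass the threshold. Without AAM replicate 4 alone it was 0.832, and the adjusted exact permutation p of 0.0589 no longer passed.

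Mstn, whose level lay near the bottom, ran opposite to Fbxo30 in the values as deposited. Its r with Fbxo30 was -0.883 (exact permutation adjusted p = 0.0110) and rho -0.905 (adjusted p = 0.0274, n = 8). With Foxo4 it had r = -0.787 (exact permutation adjusted p = 0.0878), and with Foxo1 and Foxo3 -0.132 and -0.101. Without AAM replicate 3 and WPH replicate 4 the r with Fbxo30 was -0.969 over 6 arrays (exact permutation adjusted p = 0.050, not past the threshold). With the first principal component removed it was -0.656. The r of Mstn with Fbxo32, Trim63 and Fbxo31 then changed sign, to 0.522, 0.398 and 0.363. Mstn itself had r = 0.792 with that component. An r of -0.7 or below with Mstn was found for 7.14% of all other probe sets. Mstn is also sensitive to the scale: after quantile normalization its r with Fbxo30 was 0.0577, and centred on array medians it was -0.550, neither past the threshold.

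**Figure D4:**
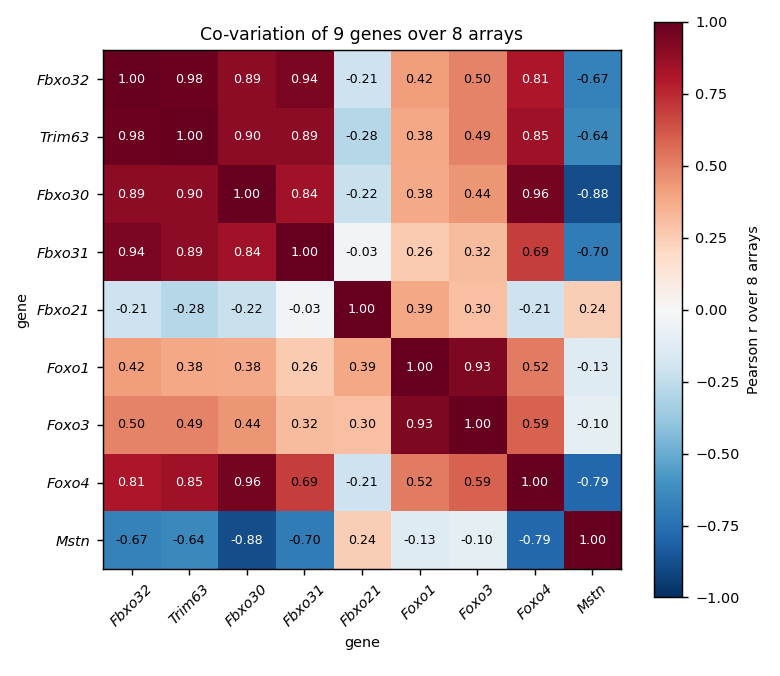
Pearson r over 8 arrays between the brightest probe sets of 9 genes (both axes, genes; colour, r from -1 in blue to 1 in red). Fbxo32, Trim63, Fbxo30 and Fbxo31 form a block of r from 0.842 to 0.978, with which Foxo4 has 0.690 to 0.957. Foxo1 and Foxo3 pair with each other at 0.930, and Mstn is negative with the block in the values as deposited.

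**Figure D5:**
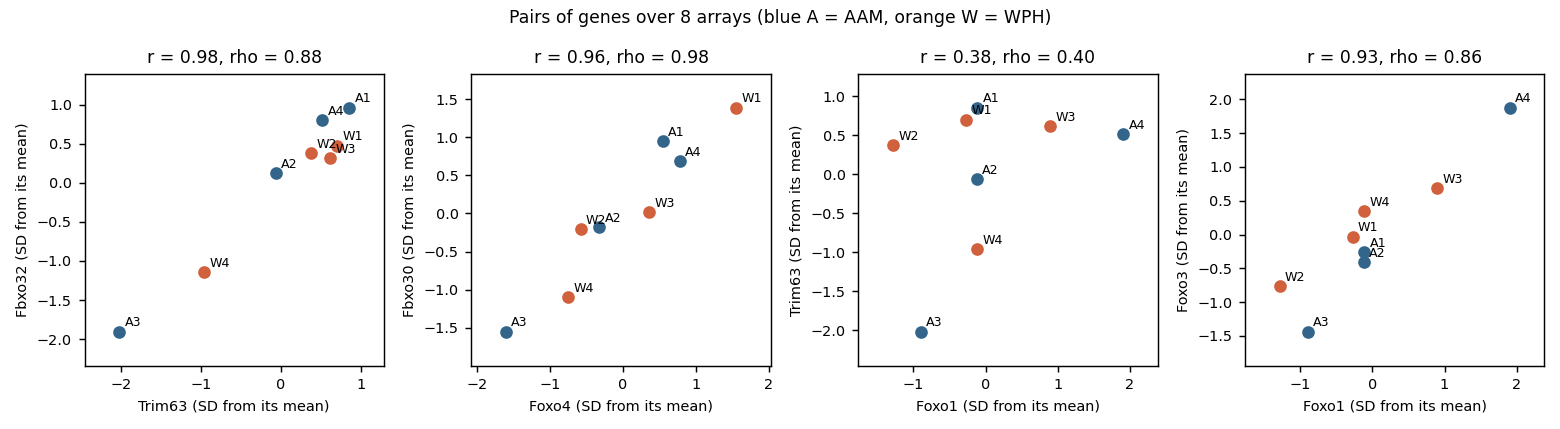
The 8 arrays for 4 pairs of genes, each axis in SDs from that gene's mean (blue A, AAM; orange W, WPH; numbers are replicates). A3 and W4 lie at the low end for Fbxo32 with Trim63 and for Fbxo30 with Foxo4, Trim63 shows no such line with Foxo1 (r = 0.384), and Foxo1 with Foxo3 is spread along a line that A4 and A3 end.

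Different probe sets of 1 gene mostly did not track each other. Of 8 such pairs, the Fbxo30 pair alone passed (r = 0.930, exact permutation adjusted p = 0.0071, n = 8). The Fbxo21 pair had r = 0.236, the 3 Foxo1 pairs 0.185, 0.10 and -0.0950, and the 3 Foxo3 pairs 0.127, -0.283 and -0.608. The statements on Foxo1 and Foxo3 thus rest on 1 probe set each.

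The 3 genes most like Fbxo32, Trim63, Foxo1 and Mstn over the 8 arrays were taken by Pearson r. For Fbxo32 they were Prpf3 (0.995), Rhou (0.994) and Plcd1 (0.990), and for Trim63 they were Pnpla7 (0.998), Rprd2 (0.988) and Rnf146 (0.987). Rnf146 is itself a ubiquitin ligase. For Foxo1 they were Arrdc2 (0.969), Os9 (0.941) and Mn1 (0.937), and for Mstn they were Pik3cd (0.970), Srsf5 (0.959) and Cd40 (0.956). They were picked as the highest of 14208 other genes. Over those genes, 0.204% passed an adjusted exact permutation p of 0.05 with Trim63, 29 genes in all, of which 21 were positive and 8 negative. With Foxo1, 0% passed, although 709 genes had an unadjusted exact permutation p below 0.05.

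Other genes of the pathway were taken from 7 lists, of which 117 of 135 genes were measured. By limma, 0 of the 117 differed between the meals past the threshold. Of the 117, 69 were higher after WPH and 48 lower, where 6556 of all 14217 genes were higher and 7661 lower. At an unadjusted limma p below 0.05 there were 6, against 3.39% of all 14217 genes. The 6 were Skp1, Atg14, Junb, Inhbb, Gdf11 and Gdf15, each higher after WPH.

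SCF partners, ubiquitin genes, E1 and E2 enzymes and deubiquitinases had 10 of 18 measured genes higher and 8 lower, with a median standardized difference of 0.143, against -0.0582 over all genes. Skp1, the adaptor that joins F-box proteins such as Fbxo32 to the cullin, had 2.63 (95% interval 0.576 to 4.59; exact permutation p = 0.0286, the smallest that 4 against 4 can give), and its meals did not overlap. Rbx1, the RING subunit of the same complex, had -1.21, Uba1, the main E1 enzyme, -0.966, and the E2 enzyme gene Ube2b 0.933. The other probe set of Rbx1 had the opposite sign, at 0.796. The other ubiquitin ligases of muscle had 7 of 13 higher and 6 lower, with a median of 0.0136, and Nedd4 (-0.692), Ubr2 (-0.574), Asb2 (-0.571) and Smurf1 (0.467) had the smallest p among them. Of the 6 probe sets of Nedd4, 3 were higher after WPH.

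Other FoxO target genes had 11 of 21 higher and 10 lower, with a median of 0.0192. Atg14, an autophagy gene, had 1.92 (95% interval 0.127 to 3.62), the cell-cycle inhibitor gene Cdkn1a -1.03, Cdkn1b 0.956 and Ddit4, a brake on mTORC1, -0.775. Regulators of FoxO had 13 of 22 higher and 9 lower, with a median of 0.129. Among them Junb, which restrains atrophy in muscle, had 2.25 (95% interval 0.340 to 4.06; exact permutation p = 0.0286), and the IGF-1 receptor gene Igf1r had 1.49 (95% interval -0.168 to 3.06). Ppp2ca, the catalytic subunit of a phosphatase, had 1.30 and Irs1, an adaptor of the insulin receptor, 1.25. Myostatin and activin signalling had 15 of 22 higher and 7 lower, with a median of 0.171. Its members with the smallest p were Inhbb, an activin subunit gene (1.92), Gdf11, a close relative of Mstn (1.74), Gdf15 (1.72) and the receptor gene Acvr1c (-1.12). The other probe set of Gdf11 had the opposite sign, at -0.925.

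Known substrates of the ligases had 8 of 11 higher and 3 lower, with a median of 0.624. Mybpc2, a thick-filament protein gene, had 1.38, Myod1, a myogenic factor gene, 1.13 and the desmin gene Des 0.960. Catabolic inputs such as glucocorticoid and cytokine signalling had 7 of 12 higher and 5 lower, with a median of 0.0955, and Rela, a subunit of NF-kB, had -2.23 (95% interval -4.03 to -0.326; unadjusted limma p = 0.0910, exact permutation p = 0.0571). The cytokine receptor genes Tnfrsf12a and Tnfrsf1a had 0.760 and 0.694, and Stat3 had 0.504.

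Set against Trim63 across the 8 rats, other FoxO target genes had 10 of 21 measured members (47.6%) at an r of at least 0.7, against 12.6% of 14208 genes, and 2 at -0.7 or below, against 9.46%. Among the 5% of probe sets with the highest SD, the share at 0.7 or above was 27.8%, so the 12.6% is a low mark for variable genes. Gabarapl1, an autophagosome gene, had r = 0.947 and Ctsl, a lysosomal protease gene, 0.946, and both passed over all genes (exact permutation adjusted p = 0.0371, n = 8). Sesn1 (0.940), Pdk4 (0.931), which turns fuel use from glucose to fat, Eif4ebp1 (0.931) and the mitophagy gene Bnip3 (0.916) did not pass. The 2 at -0.7 or below were Sesn3 (-0.811) and Sod2 (-0.757), which did not pass either. These genes were singled out after their values were seen. Without AAM replicate 3 and WPH replicate 4 the count was 6 of 21, against 7.98% of all genes. With arrays centred on their medians it was 9 of 21, against 7.28% of all genes. With the first principal component removed it was 4 of 21, against 3.93%, and after quantile normalization 2 of 15, against 4.98%.

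SCF partners, ubiquitin genes and enzymes had 7 of 18 members at an r of at least 0.7 with Trim63 and 0 at -0.7 or below, and other muscle ligases had 5 of 13 and 3. Regulators of FoxO had 6 of 22 and 3, myostatin and activin signalling 5 of 22 and 4, substrates 2 of 11 and 1, and catabolic inputs 2 of 12 and 2. Over all 14208 genes the shares with Trim63 were 12.6% and 9.46%. At 0.7 or above the shares of these lists ran from 16.7% (catabolic inputs) and 18.2% (substrates) to 38.9% (SCF partners). Without AAM replicate 3 and WPH replicate 4, the counts at 0.7 or above were 4 for SCF partners, 2 for other ligases, 4 for regulators of FoxO, and 1 each for the last 3 lists. The share of all genes was then 7.98%. With Foxo1, an r of at least 0.7 was found for 2.79% of all 14208 genes. Catabolic inputs had 3 of 12 members there, the glucocorticoid-induced genes Fkbp5 (0.885), Klf15 (0.776) and Tsc22d3 (0.70), and FoxO targets had 2 of 21, Ddit4 (0.834) and Klf15. SCF partners, myostatin and activin signalling and substrates had 1 each, and other ligases and regulators of FoxO had 0. These genes too were singled out after their values were seen, and none passed over all genes with Foxo1. For Fkbp5, Klf15, Tsc22d3 and Ddit4 the exact permutation adjusted p ran from 0.874 to 0.969. Of the catabolic inputs, 0 had an r of -0.7 or below with Foxo1, and the glucocorticoid receptor gene Nr3c1 had -0.383. The values with Foxo1 rest on 1 probe set, which the other Foxo1 probe sets did not track.

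AAM replicate 3 and WPH replicate 4, the low arrays for the ligases, were compared on cell type markers, each list's score being its mean SD from the gene means. The fast-fibre score, over 7 of 8 markers, was -0.838 in AAM replicate 3 and 1.25 in WPH replicate 4, on opposite sides of the -0.386 to 0.488 of the other 6 arrays. The fibroblast score, over 5 of 5 markers, was 0.642 and 1.37, both above the -1.13 to 0.465 of the others. The other 8 lists held at least 1 of these arrays within the range of the other 6, or the arrays on opposite sides of it. The part of fibroblast RNA in the ligase pattern was not tested. In whole muscle, fewer cells of a type and less RNA per cell cannot be told apart. Between the meals, 0 markers of the 10 lists passed limma's threshold.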

How the data were processed

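The authors deposited 1 log2-like level per probe set and array. The submitters' processing notes list R 2.7.2. How background was corrected and how arrays were normalized and summarised was not stated in the sources used here, so neither the scale nor the centring is known. The levels were used as deposited. Of 31099 probe sets, 57 controls were left out and 31042 were kept. Of these, 20826 had 1 gene symbol, 436 had several and 9780 were unnamed, and those with several were not used to name a gene.

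The members and gene lists were chosen with earlier results of these data known. WPH was compared with AAM by lmFit and eBayes of limma 3.58.1 (R 4.3.3), two-sided, with Benjamini-Hochberg adjustment over 31042 probe sets and a threshold of 0.05. Intervals of standardized differences come from a noncentral t with 6 degrees of freedom. Exact permutation tests, two-sided, used the 70 splits of 8 arrays for single probe sets and the 40320 pairings for correlations over 8 arrays (SciPy 1.17.1). With group means removed, arrays were permuted within meals only, and with arrays left out, among those kept. Adjustment was over 18 pairs within each family, over 8 for probe sets of 1 gene, and over 14208 genes for Trim63 and Foxo1 with all genes. Each gene stands for its probe set with the highest mean level. The named genes are all members, up to 4 genes per list with the smallest limma p, and the 3 genes most like Fbxo32, Trim63, Foxo1 and Mstn. The scripts were tested on simulated data. Meals were taken from the treatment labels, the titles call each sample a biological replicate, and 0 pairs of arrays were identical. The number of arrays limits the precision.

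The alternatives were quantile normalization, median centring, leaving out dim probe sets, a block for the replicate number, leaving out each array, a trended robust prior, array weights, unit SD per probe set, 1 probe set per gene, a threshold of 0.1, group means removed and the probe set of largest SD. Leaving out AAM replicate 3 with WPH replicate 4, removing the first principal component and all alternatives of the pairs of ligases, FoxO genes and Mstn among themselves, of the dimmer probe sets and of the FoxO target count were chosen after seeing the data.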

Additional observations from a re-analysis of the deposited data

Results flagged for a closer look

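In 2 of 30 groups of 4 arrays, one array lay far from the other 3 by Dixon's test, where chance gives about 1 in 20. Fbxo32 was low in WPH replicate 4 among the WPH arrays, with a gap of 0.902 of the group's range. Foxo1 (1375688_at), a dim probe set, was low in WPH replicate 2 among the WPH arrays, with a gap of 0.864.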

How the results depend on the processing

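The meal comparison called 0 of the 15 probe sets under each alternative run. With the replicate block, 0 of 31042 probe sets and 0 of the 15 were called. The replicate numbers were not taken as pairs, since correlations between arrays of the same number were 0.157, 0.134, 0.0640 and -0.0708. Still, 5 of 8 arrays correlated best with their own number, where chance gives 2, a hint from the data and not from the design. Over all probe sets, quantile normalization gave 5 calls, none of them a member, each with 2 distinct values split by meal and so almost no spread, and unit SD per probe set gave 307, since it sets each probe set's spread to the same value. The 219 recomputed standardized differences ran from -1.84 to 1.45, with 50 changes of sign among 15 uncalled probe sets and a smallest unadjusted limma p of 0.0604. In 10 of 15 probe sets the level lay above the median, before and after quantile normalization.

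Of the pairs with FoxO genes, 2 passed. With 1 array left out, 0 to 3 passed, with both arrays out (AAM replicate 3 and WPH replicate 4) 0, with group means removed 4, and after quantile normalization 0 of 12 testable pairs, Foxo3 then having 1 value on all arrays. Median centring reversed Fbxo21 with Foxo4 to r = 0.959, and quantile normalization reversed Fbxo32 with Fbxo21 to 0.866 and Fbxo30 with Mstn to 0.0577. The cause was not tested. Array medians span 6.67e-05, more than the range of 8 of the 15 probe sets and of 81.5% of all probe sets. Of the 18 pairs among the ligases, FoxO genes and Mstn, 8 passed, 6 to 9 with 1 array left out and 0 without AAM replicate 3 and WPH replicate 4. Of the 6 among the 4 ligases these counts were 5 to 6 and 0. Over 6 arrays the r values among the 4 ligases were lower, from 0.474 to 0.895 against 0.842 to 0.978 over 8. The exact permutation p also takes coarser steps there. How much each added to the counts of 0 was not tested, and these counts do not show that the relations were absent.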
